A study of Mus musculus with 6 samples.

Results

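Small leucine-rich proteoglycans (SLRPs) are secreted proteins with a core of leucine-rich repeats that binds collagen fibrils. Genes whose symbol was Dcn, Bgn, Lum, Fmod, Ogn, Aspn, Prelp, Omd or Podn were taken from the table of all genes, and all 9 were found among its 14870 genes. All 9 also passed the filter on low counts, as did 13906 genes in all. RNA was sequenced from primary lung-resident fibroblasts in culture, isolated from TGFα mice of the CCSP-rtTA and tetO-TGFα system after 10 days on doxycycline (Dox), which switches on the growth factor TGFα under a Clara cell-specific promoter in the lung epithelium. The cells were transfected for 72 h with an siRNA against Aurkb (3 libraries) or with a control siRNA (3 libraries), so that the transgene and Dox were common to both groups. Adult mice of both sexes were used. The siRNA is a small RNA duplex that leads to cleavage of its matching mRNA, and Aurkb encodes Aurora kinase B, a kinase of mitosis. Whether the libraries of a group stem from different mice or cultures is not stated in the labels, and the p-values given here therefore reflect only the variation among these libraries, which may be technical.

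SLRPs sit on the surface of collagen fibrils, where they set fibril spacing and width, and several of them hold growth factors of the TGFβ family in the matrix. Decorin (Dcn) and biglycan (Bgn) carry chondroitin or dermatan sulfate chains, whereas lumican (Lum), fibromodulin (Fmod), osteoglycin (Ogn) and osteomodulin (Omd) can carry keratan sulfate. Asporin (Aspn) and PRELP (Prelp) usually carry no such chain, and podocan (Podn) belongs to a separate class of the family. In lung, fibroblasts are the main source of decorin and lumican.

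The reads counted to genes were 20820596 to 27572833 in the Aurkb siRNA libraries and 29350227 to 30441954 in the control siRNA libraries. Whole reads were recovered from the deposited RPKM values and divided by the size factors of the authors, and the result is called normalized counts here. Aurkb averaged 39.7 ± 12.1 normalized counts with Aurkb siRNA and 114 ± 17.8 with control siRNA (SD, n = 3 each), 34.9% of the control siRNA level, with no overlap between the groups. The median log2 fold change of all tested genes was 0.003. A gene was called higher or lower where the p from limma, adjusted after Benjamini-Hochberg over all tested genes, was at most 0.05 and the change at least 1.5-fold. Fold changes were taken on log2(normalized count + 1), and changes of genes with few reads come out too small on that scale. In bulk RNA, fewer cells of a type and less RNA per cell cannot be told apart.

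Of the 9 SLRP genes, 6 were lower with Aurkb siRNA and 0 were higher, where 7.67% of all tested genes were lower and 4.64% were higher (12.3% in either direction). With the replicate number as a block these counts were also 6 and 0, where 8.42% of all genes were lower and 4.99% were higher. The labels do not state that libraries of the same number belong together. Lum fell to 28.5% of the control siRNA level, Dcn to 47.7%, Fmod to 48.6%, Aspn to 54.1%, Podn to 64.9% and Prelp to 67.1%. Bgn, Ogn and Omd did not pass the call. The median log2 fold change of the 9 genes was -0.62. For 7 of the 9, the 3 Aurkb siRNA libraries were all lower than the 3 control siRNA libraries. Such a gap between the groups was found in 52.2% of all tested genes, with Aurkb siRNA lower in 26.2% and higher in 26%. The 9 genes took 0.61% to 0.71% of the counted reads with Aurkb siRNA and 0.86% to 0.95% with control siRNA.

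**Figure D1:**
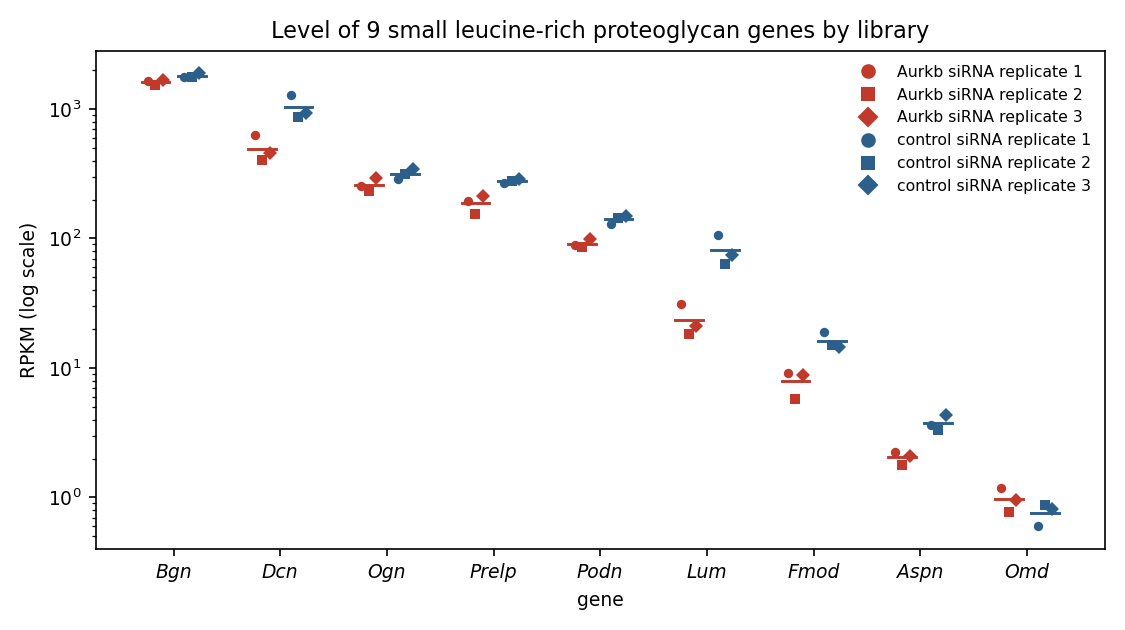
RPKM (reads scaled by gene length and library total, log scale) of each of the 9 SLRP genes in the 3 Aurkb siRNA libraries (red) and the 3 control siRNA libraries (blue); symbols mark the replicate number and short lines the group means. The Lum libraries lie at 18.2 to 30.9 with Aurkb siRNA, below 63.8 to 106 with control siRNA, whereas those of Omd overlap.

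Lumican, which orders collagen fibrils and carries keratan sulfate in the cornea, had the largest change of the 9. Lum (Entrez gene 17022; chr10:97565501-97572703, plus strand, GRCm38.p6) had 1698, 1033 and 1199 normalized counts in Aurkb siRNA replicates 1, 2 and 3, against 5999, 3583 and 4201 in control siRNA replicates 1, 2 and 3. The highest Aurkb siRNA library lay below the lowest control siRNA library, and replicate 1 was the highest library of both groups. Lum thus had a log2 fold change of -1.81 (standard error 0.21, 95% interval -2.28 to -1.34), with an adjusted p of 2.29e-04 from limma. Against the control siRNA library of the same number, the Aurkb siRNA libraries held 28.3%, 28.8% and 28.5% of the Lum level. These 3 shares lay within 1 percentage point of each other, although the Lum level itself differed between libraries of a group.

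Decorin, which binds TGFβ and the surface of collagen I fibrils, was the second most abundant of the 9. Dcn (Entrez gene 13179; chr10:97479500-97518163, plus strand) had 34809.5, 23331 and 26129 normalized counts in Aurkb siRNA replicates 1, 2 and 3, against 74216, 49566 and 52921 in control siRNA replicates 1, 2 and 3. The groups did not overlap, and replicate 1 was again the highest of each group. For Dcn the log2 fold change was -1.07 (standard error 0.18, 95% interval -1.46 to -0.67), with an adjusted p of 0.0015 from limma. By replicate number, Dcn stood at 46.9%, 47.1% and 49.4% of control siRNA. Replicate 1 exceeded the mean of the other 2 libraries 1.41-fold with Aurkb siRNA and 1.45-fold with control siRNA for Dcn, and 1.52-fold with Aurkb siRNA and 1.54-fold with control siRNA for Lum. Replicate 1 was therefore high in both groups for these neighboring genes of chromosome 10. This was not particular to them, since Fmod on chromosome 1 stood at 1.21-fold with Aurkb siRNA and 1.28-fold with control siRNA. For Bgn, Ogn and Podn, replicate 1 lay below the mean of the other 2 libraries in both groups.

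The falls of Dcn and Lum were compared through their ratio. The ratio of Dcn to Lum in RPKM was 20.2, 22.3 and 21.5 with Aurkb siRNA, against 12.2, 13.6 and 12.4 with control siRNA. The ranges did not overlap, and the exact two-sided permutation test gave p = 0.1, the smallest that 3 against 3 libraries allow.

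**Figure D2:**
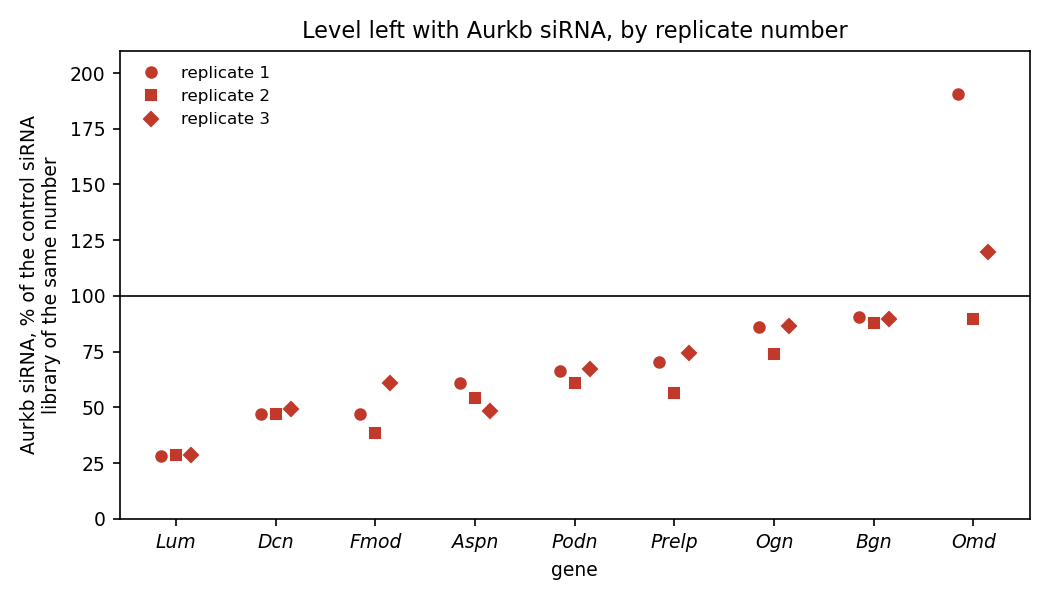
Level of each of the 9 SLRP genes in an Aurkb siRNA library as percent of the control siRNA library of the same replicate number, from normalized counts; the horizontal line marks 100%. The 3 Lum points coincide at 28.3% to 28.8% and the Dcn points at 46.9% to 49.4%, while Fmod spreads from 38.7% to 61.0% and Omd lies on both sides of the line.

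Fibromodulin and PRELP lie beside each other on chromosome 1, on opposite strands. Fibromodulin competes with lumican for a site on collagen I, and PRELP anchors collagen to heparan sulfate of basement membranes. Fmod (Entrez gene 14264; chr1:134037254-134048280, plus strand) had 689.8, 454.4 and 687.4 normalized counts in Aurkb siRNA replicates 1, 2 and 3, against 1470.2, 1174 and 1127 in control siRNA replicates 1, 2 and 3. The groups did not overlap, and Aurkb siRNA replicate 2 was the lowest. The log2 fold change was -1.06 (standard error 0.16), with an adjusted p of 0.0010 from limma. Prelp (Entrez gene 116847; chr1:133910304-133930102, minus strand) had 18445, 15239.8 and 20918 normalized counts in Aurkb siRNA replicates 1, 2 and 3, against 26182, 27066 and 28130.4 in control siRNA replicates 1, 2 and 3. Again no Aurkb siRNA library reached the control siRNA range. Its log2 fold change was -0.59 (standard error 0.10), with an adjusted p of 0.0022 from limma, so that it lay just past the 1.5-fold limit. Without Aurkb siRNA replicate 2 the change of Prelp was -0.47 and without control siRNA replicate 3 it was -0.56, both short of that limit.

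The promoters of Fmod and Prelp, as neighbors that were both called lower, and of Aspn, are shown with that of Bgn, which was not called. The sequences are from RefSeq on GRCm38.p6, 5′ to 3′ on the strand of the gene, from 250 bases before to 50 bases after a start listed for the gene. The windows of Fmod, Aspn and Bgn lie at the 5′ end of the positions given for these genes, whereas that of Prelp belongs to a start inside the gene span. Capitals mark matches, on either strand, to 5 motifs. The TATA box was searched as TATAAA, which 7.37% of the 14042 promoters of tested genes held. The site of AP-1 was searched as TGANTCA, held by 5.44% of these promoters. The site shared by EGR proteins and WT1 was searched as GCGTGGG, held by 8.20%. The core of the CAGA box, which Smad proteins bind, was searched as CAGACA, held by 16.2%. The motif CCAAT was held by 37.4%. Promoters were matched for 7 of the 9 genes, with 2 windows for Podn. No promoter of Dcn or Lum was available, so nothing said here on motifs covers these genes.
Fmod, chr1:134037004-134037303, plus strand: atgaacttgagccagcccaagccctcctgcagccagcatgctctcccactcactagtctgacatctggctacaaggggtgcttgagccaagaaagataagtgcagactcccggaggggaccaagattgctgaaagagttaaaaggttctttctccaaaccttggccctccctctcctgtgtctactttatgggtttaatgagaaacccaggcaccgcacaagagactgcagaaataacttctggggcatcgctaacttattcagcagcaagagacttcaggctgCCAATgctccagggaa
Prelp, chr1:133921352-133921651, minus strand: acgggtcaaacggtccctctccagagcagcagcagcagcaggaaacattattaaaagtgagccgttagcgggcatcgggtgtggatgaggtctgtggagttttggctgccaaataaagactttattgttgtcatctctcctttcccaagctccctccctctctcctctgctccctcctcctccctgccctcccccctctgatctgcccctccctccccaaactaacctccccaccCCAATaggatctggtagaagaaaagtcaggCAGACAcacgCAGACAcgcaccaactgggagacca
Aspn, chr13:49544193-49544492, plus strand: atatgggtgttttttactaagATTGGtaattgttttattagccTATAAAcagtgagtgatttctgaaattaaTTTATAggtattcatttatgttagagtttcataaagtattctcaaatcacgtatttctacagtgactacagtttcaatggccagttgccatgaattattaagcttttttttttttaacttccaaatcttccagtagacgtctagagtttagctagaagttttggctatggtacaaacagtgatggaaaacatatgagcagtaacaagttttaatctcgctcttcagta
Bgn, chrX:73483351-73483650, plus strand: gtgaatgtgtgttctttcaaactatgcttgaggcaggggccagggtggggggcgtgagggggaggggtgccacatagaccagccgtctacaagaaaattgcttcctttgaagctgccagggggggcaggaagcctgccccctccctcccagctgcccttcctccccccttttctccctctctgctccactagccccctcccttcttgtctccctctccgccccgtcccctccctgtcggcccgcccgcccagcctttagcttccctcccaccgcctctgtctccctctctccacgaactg
The Fmod, Prelp and Aspn windows each held CCAAT, which makes 3 of the 8 windows. That is near the share of all promoters of tested genes (37.4%) and of those of lower genes (35.5%). Counted from the start site, the CCAAT matches began at 35 for Fmod, -15 for Prelp and -229 for Aspn. Prelp also held CAGACA in 2 places, from 16 and 26, and Aspn held TATAAA in 2 places, from -207 and -178. The Bgn window held none of the 5 motifs, and neither did the window at the 5′ end of Podn, which was called lower, nor that of Omd, which was not. Ogn, which was not called, held TATAAA in 2 overlapping places, from -229 and -227. The second Podn window, inside the gene, held CAGACA from 37. None of the 8 windows held TGANTCA or GCGTGGG. A match is a description of the letters and shows neither a bound site nor a cause.

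Asporin, which binds TGFβ1 and collagen, was expressed at a low level. Aspn (Entrez gene 66695; chr13:49544443-49567565, plus strand) had 156.4, 127.3 and 148.5 normalized counts in Aurkb siRNA replicates 1, 2 and 3, against 256.4, 235 and 307.5 in control siRNA replicates 1, 2 and 3. All 3 Aurkb siRNA libraries were lower than the lowest control siRNA library. Aspn had a log2 fold change of -0.88 (standard error 0.13), with an adjusted p of 8.60e-04 from limma. Podocan, which in mice limits the growth of smooth muscle cells, was abundant by comparison. Podn (Entrez gene 242608; chr4:108014793-108031954, minus strand) had 8188, 8274 and 9551 normalized counts in Aurkb siRNA replicates 1, 2 and 3, against 12311, 13529 and 14234.5 in control siRNA replicates 1, 2 and 3. The groups did not overlap, and the spread within a group was small. Podn had a log2 fold change of -0.62 (standard error 0.08), with an adjusted p of 3.26e-04 from limma. It was -0.58 both without Aurkb siRNA replicate 1 and without control siRNA replicate 3, just short of the 1.5-fold limit.

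Biglycan, which signals through Toll-like receptors when it is released from the matrix, was the most abundant of the 9 and did not pass the call. Bgn (Entrez gene 12111; chrX:73483601-73495936, plus strand) had 106370.5, 102514 and 110976 normalized counts in Aurkb siRNA replicates 1, 2 and 3, against 117532, 116567 and 123996 in control siRNA replicates 1, 2 and 3. The groups did not overlap, with the Aurkb siRNA libraries at 90.5%, 87.9% and 89.5% of the library of the same number. The log2 fold change was -0.16 (standard error 0.09), with an adjusted p of 0.19 from limma and a 95% interval of -0.37 to 0.04. The interval does not reach the 1.5-fold limit on the lower side.

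Osteoglycin, also called mimecan, and osteomodulin lie in the cluster of Aspn. Ogn (Entrez gene 18295; chr13:49608015-49624501, plus strand) had 17196, 16083.5 and 20377 normalized counts in Aurkb siRNA replicates 1, 2 and 3, against 19954, 21799 and 23610.4 in control siRNA replicates 1, 2 and 3. Aurkb siRNA replicate 3 lay above control siRNA replicate 1, so that the groups overlapped. The log2 fold change was -0.29 (standard error 0.10, 95% interval -0.51 to -0.07), with an adjusted p of 0.039 from limma, but it was below 1.5-fold. Osteomodulin, which binds collagen in bone and tooth, had the lowest level of the 9. Omd (Entrez gene 27047; chr13:49582462-49592612, plus strand) had 54.7, 37.3 and 46.0 normalized counts in Aurkb siRNA replicates 1, 2 and 3, against 28.7, 41.5 and 38.4 in control siRNA replicates 1, 2 and 3. The groups overlapped, and the log2 fold change of 0.34 had a 95% interval of -0.17 to 0.84 (adjusted p = 0.26 from limma). Omd had 32 to 57 reads per library.

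In RPKM, which is scaled by gene length and so allows levels of different genes to be set beside each other, the 9 genes had the same order in all 6 libraries. Bgn was highest, followed by Dcn, Ogn, Prelp, Podn, Lum, Fmod, Aspn and Omd. Within a group, the ranges of neighboring genes in that order did not overlap, although the lowest Ogn library (288 RPKM) nearly met the highest Prelp library (287 RPKM) with control siRNA. Among all 14870 genes, Bgn ranked 14 to 17 by RPKM with Aurkb siRNA and 11 to 12 with control siRNA. Dcn ranked 89 to 142 with Aurkb siRNA and 18 to 42 with control siRNA, and Lum 2254 to 3547 with Aurkb siRNA and 568 to 1065 with control siRNA.

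The summed RPKM of the 9 genes was 2866, 2449 and 2765 in Aurkb siRNA replicates 1, 2 and 3, against 3881, 3470.5 and 3683 in control siRNA replicates 1, 2 and 3. It averaged 2693 ± 217 with Aurkb siRNA and 3678 ± 205 with control siRNA (SD, n = 3 each), or 73.2% of the control siRNA level. The groups did not overlap, and an exact permutation test (two-sided) gave p = 0.1, which is again the lower limit. Bgn made up 60.5 ± 2.60% of this sum with Aurkb siRNA and 49.4 ± 3.12% with control siRNA, whereas Dcn made up 18.3 ± 3.09% with Aurkb siRNA and 27.8 ± 4.72% with control siRNA. The ratio of Bgn to Dcn was 2.65, 3.82 and 3.69 in Aurkb siRNA replicates 1, 2 and 3, against 1.38, 2.04 and 2.03 in control siRNA replicates 1, 2 and 3. Without Dcn the summed level was 83.0% of control siRNA, and without Bgn it was 57.2%.

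**Figure D3:**
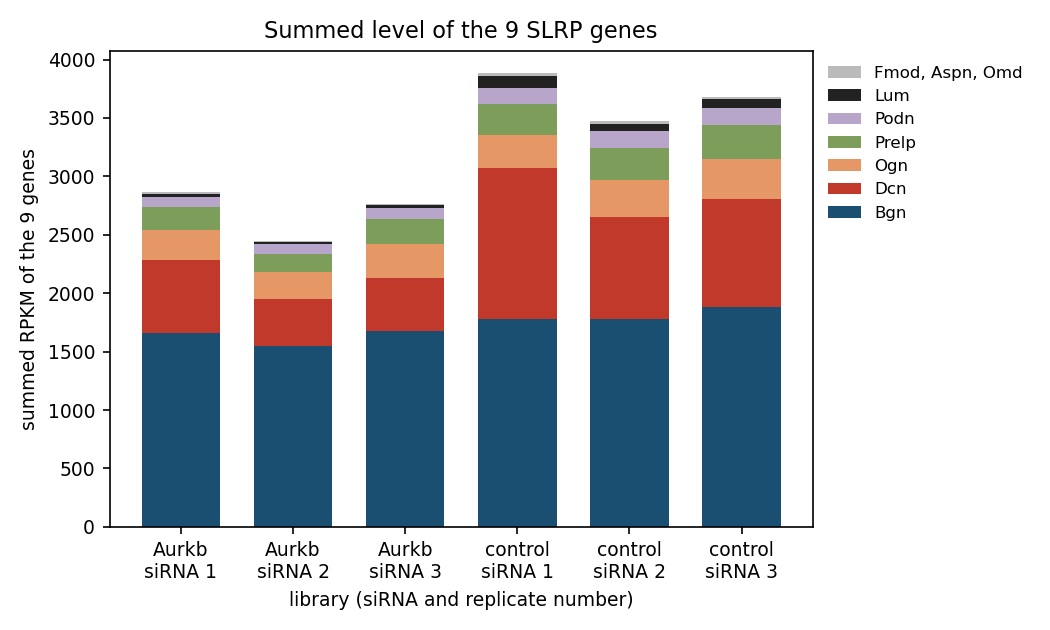
Summed RPKM of the 9 SLRP genes in each library, Aurkb siRNA to the left of control siRNA, divided by gene. The sums lie at 2449 to 2866 with Aurkb siRNA, below 3470.5 to 3881 with control siRNA, and the Dcn segment shrinks by more than the Bgn segment.

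Col1a1, the collagen I chain whose fibrils several SLRPs bind, averaged 1777 ± 203 RPKM with Aurkb siRNA and 1758 ± 243 with control siRNA. Relative to Col1a1 in RPKM, Dcn stood at 40.2%, 22.3% and 23.2% with Aurkb siRNA, against 83.4%, 51.2% and 45.7% with control siRNA. These ranges did not overlap (exact two-sided permutation test, p = 0.1). Col3a1, the chain of collagen III, averaged 2468 ± 109 RPKM with Aurkb siRNA and 3272 ± 175 with control siRNA, 75.4% of the control siRNA level, and its groups did not overlap (exact two-sided permutation test, p = 0.1). Its log2 fold change of -0.41 was not called (adjusted p = 0.067 from limma). Bgn relative to Col1a1 was 84.9% to 107% with Aurkb siRNA and 93.0% to 115% with control siRNA, ranges that overlapped.

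Of the 9 SLRP genes, 7 lie in clusters with other SLRP genes, whereas Bgn and Podn have no SLRP gene within 500 kb. On chromosome 10, Dcn, Lum, Kera and Epyc lie within 202 kb, and Dcn, Lum and Epyc were each lower, while Kera was not in the table. On chromosome 1, Prelp and Fmod were lower and Optc, their neighbor, was not called. On chromosome 13, Ecm2, Aspn, Omd and Ogn lie within 120 kb, where Ecm2 and Aspn were lower and Omd and Ogn were not called. These 4 genes lie inside Cenpp, a centromere gene on the opposite strand with 43.3 ± 7.68 normalized counts with Aurkb siRNA and 42.5 ± 2.25 with control siRNA. Podn overlaps Scp2 on the same strand, and Prelp and Optc overlap an antisense gene. Scp2 averaged 16088 ± 1486 normalized counts with Aurkb siRNA and 18350 ± 1966 with control siRNA (log2 fold change -0.19, not called). Reads of overlapping genes may not have been told apart, since the strand setting of the counting is not given in the sources used here. For Podn and Scp2 a strand setting would not separate the reads.

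Of the other SLRP genes in the table, 5 passed the filter, of which Epyc and Ecm2 were lower and Tsku was higher. Among all tested genes, 7.67% were lower and 4.64% were higher. Tsku (tsukushi, an inhibitor of BMP and TGFβ signaling) had 1345.1, 1733 and 1246 normalized counts in Aurkb siRNA replicates 1, 2 and 3, against 841.8, 830.3 and 716.6 in control siRNA replicates 1, 2 and 3. It was higher in 3 of 3 Aurkb siRNA libraries, with a log2 fold change of 0.84 (standard error 0.12, adjusted p = 6.29e-04 from limma). Ecm2 averaged 74.3 ± 15.8 normalized counts with Aurkb siRNA and 126 ± 7.74 with control siRNA (log2 fold change -0.77, adjusted p = 0.0058 from limma). Epyc (epiphycan, known from cartilage) had 24.9, 10.4 and 6.57 normalized counts in Aurkb siRNA replicates 1, 2 and 3, against 41.2, 31.3 and 35.7 in control siRNA replicates 1, 2 and 3. Its adjusted p was 0.020 from limma, and the call was lost without Aurkb siRNA replicate 3, control siRNA replicate 1 or control siRNA replicate 3 (adjusted p up to 0.060 from limma). Optc averaged 27.0 normalized counts with Aurkb siRNA and 31.9 with control siRNA, and Podnl1 18.5 with Aurkb siRNA and 16.4 with control siRNA, and neither was called. Chad and Nyx were below the filter, at up to 5.18 normalized counts with Aurkb siRNA and up to 12.6 with control siRNA.

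**Figure D4:**
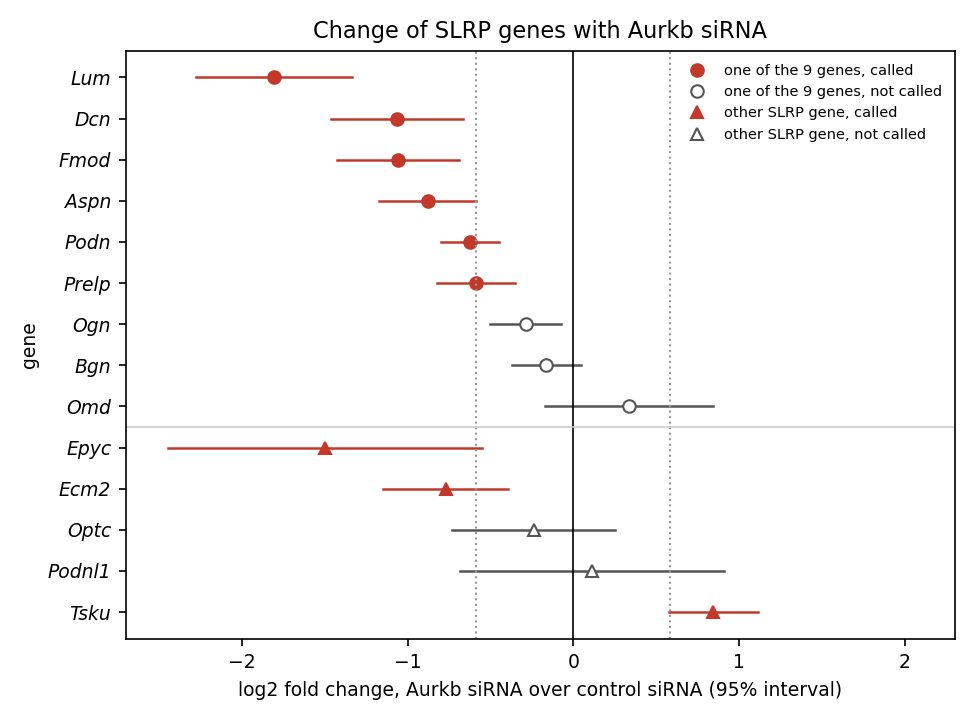
Log2 fold change, Aurkb siRNA over control siRNA, of the 9 SLRP genes (circles) and 5 other SLRP genes (triangles), with 95% intervals from limma; filled red symbols were called and dotted lines mark 1.5-fold. The filled circles run from -1.81 for Lum to -0.59 for Prelp, and Tsku is the gene called on the higher side, at 0.84.

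For each called SLRP gene, the genes most alike over the 6 libraries were taken as those with the smallest root mean square difference of log2 values after each gene was centred on its mean, among the 12107 genes that averaged 50 or more normalized counts with either siRNA. For Lum these were C1s1 (0.12), which encodes a complement protease, Pamr1 (0.14) and Cyp2s1 (0.15). C1s1 averaged 4295 ± 752 normalized counts with Aurkb siRNA and 13496 ± 3550 with control siRNA. For Dcn they were Creg1 (0.07), Serpinb8 (0.07) and Gsta4 (0.09), and for Fmod Spns2 (0.04), Fxyd1 (0.09) and Csdc2 (0.10). For Aspn they were Vash1 (0.06), Notch4 (0.07) and Scn7a (0.08), and for Podn 2510009E07Rik (0.03), Pdk2 (0.04) and Slc25a12 (0.05). The gene nearest to Prelp was Figf (0.01), which encodes VEGF-D, followed by Runx1t1 (0.05) and Lrba (0.07). Figf averaged 5496 ± 879 normalized counts with Aurkb siRNA and 8106 ± 270 with control siRNA (log2 fold change -0.57), so that it was not called. Each called SLRP gene was also compared with the others of the 9 that averaged 50 or more normalized counts, which leaves out Omd. Among these pairs, Prelp and Podn were closest to each other, with a difference of 0.10. Bgn and Ogn, neither of which was called, were not compared with each other. Many other genes were closer to each, since Podn ranked 33 for Prelp and Prelp ranked 135 for Podn among the 12107 genes.

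Of 12 fibrillar and fibril-surface collagens, 2 were lower (16.7%, where 7.67% of all tested genes were) and 0 were higher, with a median log2 fold change of -0.16. Col14a1, a collagen of the fibril surface, averaged 4182 ± 887 normalized counts with Aurkb siRNA and 8213 ± 1020 with control siRNA (log2 fold change -0.99), and Col6a2, a chain of collagen VI, had a log2 fold change of -0.64. Col1a1 had a log2 fold change of 0.01. Of 13 fibril-associated glycoproteins, 3 were lower (23.1%) and 0 were higher, with a median of -0.16. Dpt (dermatopontin), a protein that binds decorin, averaged 57.4 ± 17.7 normalized counts with Aurkb siRNA and 203 ± 36.2 with control siRNA (log2 fold change -1.83, adjusted p = 2.78e-04 from limma). Tnxb (tenascin X) and Postn (periostin) had log2 fold changes of -0.95 and -0.97.

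Of 19 genes for the synthesis of chondroitin and dermatan sulfate chains, 1 was lower (5.26%) and 0 were higher, with a median of 0.15. The lower gene was Chst15, a sulfotransferase, with a log2 fold change of -0.71. Of all tested genes, 7.67% were lower and 4.64% were higher. Of 14 genes for keratan sulfate chains and for the supply of the sulfate donor, 1 was lower (7.14%) and 2 were higher (14.3%). Their median was 0.11. Papss2, an enzyme that makes the sulfate donor PAPS, averaged 1718 ± 127 normalized counts with Aurkb siRNA and 956 ± 33.4 with control siRNA (log2 fold change 0.84). B3gnt7, which extends keratan sulfate chains, had a log2 fold change of 0.83 and Chst1, a keratan sulfate sulfotransferase, of -0.72. Of 12 proteases known to process SLRPs or their partners, 1 was lower (8.33%) and 1 was higher (8.33%), with a median of -0.003. Tll1, a protease related to BMP1, averaged 289 ± 42.2 normalized counts with Aurkb siRNA and 121 ± 3.57 with control siRNA (log2 fold change 1.25), whereas Ctsk (cathepsin K) had a log2 fold change of -0.61.

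Of 15 receptors of SLRPs, 3 were lower and 1 was higher, with a median log2 fold change of -0.18. The counts of this paragraph stand beside 7.67% of all tested genes that were lower and 4.64% that were higher. Kdr (VEGF receptor 2) had a log2 fold change of -1.44, P2rx7 of -1.03 and Met (the HGF receptor) of -0.60, and Cd44 rose by 0.61. Kdr also stands in the list of endothelial markers below. Tlr4, a receptor of biglycan, had a log2 fold change of -0.53, below 1.5-fold. Of 11 growth factors bound by SLRPs, 2 were lower (18.2%) and 3 were higher (27.3%), with a median of 0.09. Bmp2 and Pdgfb had log2 fold changes of -0.94 and -1.04, and Ctgf, Vegfa and Bmp4 of 0.97, 0.76 and 0.68. The TGFβ genes Tgfb1, Tgfb2 and Tgfb3 had log2 fold changes of 0.09, -0.26 and -0.09, and none of these 3 was called.

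**Figure D5:**
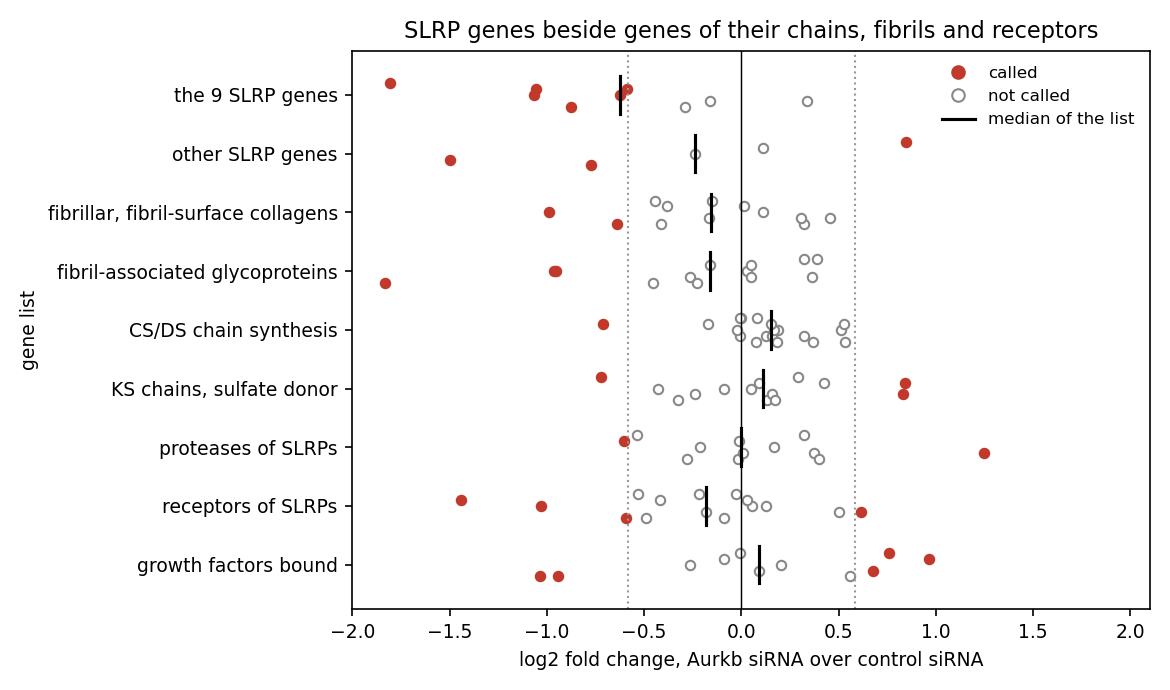
Log2 fold change, Aurkb siRNA over control siRNA, of the tested genes of 9 lists, 1 point per gene with called genes in red; black bars mark the median of each list and dotted lines 1.5-fold. CS, DS and KS stand for chondroitin, dermatan and keratan sulfate. The median of the 9 SLRP genes lies at -0.62, and the medians of the other 8 lists lie between -0.24 and 0.15.

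Markers of several cell types moved with the SLRP genes, and their part in the change of the SLRP genes was not tested. The counts below stand beside 7.67% of all tested genes that were lower and 4.64% that were higher. Of 10 fibroblast markers, 1 was lower (Pdgfra, log2 fold change -0.93). The list summed to 971568 to 1115315 normalized counts with Aurkb siRNA and 1138169 to 1311153 with control siRNA. Abundant genes weigh most in such sums, and Col3a1 averaged 371822 with Aurkb siRNA and 494680 with control siRNA. Vim, Col1a1 and Tcf21 had log2 fold changes of 0.005, 0.01 and 0.13, whereas the median of the list was -0.27. The remaining markers of this list were below 0 and not called: S100a4 (-0.41), Col3a1 (-0.41), Thy1 (-0.34), Fbn1 (-0.29), Pdgfrb (-0.25) and Col1a2 (-0.15). Of 10 markers of adventitial fibroblasts, a cell type rich in decorin and lumican, 5 were lower and 0 were higher. Lower were Cd34, Dpt, Col14a1, Clec3b and Col15a1. The other 5 were not called: Dpp4, Serpinf1, Ly6c1, Ly6a and Pi16 had log2 fold changes of 0.39, 0.01, 0.02, -0.17 and -0.23. The list summed to 16358 to 20908 normalized counts with Aurkb siRNA and 21704 to 24995 with control siRNA. Within it, Col14a1 alone averaged 4182 with Aurkb siRNA and 8213 with control siRNA. Dpt and Col14a1 stand in this list and in those above. Of 11 endothelial markers, 10 were lower (led by Kdr, Emcn, Esam and Pecam1), with sums of 3397 to 4160 with Aurkb siRNA and 6699 to 8698 with control siRNA. Among 8 markers of pericytes and smooth muscle, 5 were lower (led by Mcam, Abcc9, Notch3 and Kcnj8), with sums of 10967 to 17872 with Aurkb siRNA and 11887 to 16064 with control siRNA. Of 7 myofibroblast markers, 3 were higher (Tagln, Acta2 and Cnn1), with sums of 104794 to 155740 with Aurkb siRNA and 68378 to 86185 with control siRNA. Of 8 mesothelial markers, 2 were lower (Upk1b and Lrrn4) and 1 was higher (Krt19), with sums of 16277 to 30234 with Aurkb siRNA and 29542 to 35262 with control siRNA. Of 8 alveolar fibroblast markers, 1 was lower (Ces1d) and 1 was higher (Fgf10), with sums of 34738 to 41019 with Aurkb siRNA and 34672 to 44071 with control siRNA. Of 3 hematopoietic markers tested, Cd68 and Lyz2 were lower, with 5 of the 10 listed genes not in the table. Their list summed to 489.6 to 652 with Aurkb siRNA and 1135 to 1225.5 with control siRNA. Cd68 alone averaged 199 with Aurkb siRNA and 645 with control siRNA. The groups overlapped for Lyz2, Csf1r was not called (log2 fold change -0.21), and Ptprc and Itgam were below the filter. Of 4 epithelial markers tested, 1 was lower (Sftpc), with sums of 52.8 to 71.0 with Aurkb siRNA and 71.0 to 125 with control siRNA and with 4 of the 8 listed genes not in the table. Of 4 cartilage, bone and tendon markers tested, 1 was higher (Mkx), with sums of 541.5 to 607 with Aurkb siRNA and 490.4 to 555 with control siRNA and with 7 of the 11 listed genes, among them Acan and Col2a1, not in the table.

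The 7-base words AACGTGT and ACGTGTA were searched in the mRNAs of the 9 genes, because they were picked in earlier work on these same libraries from the fall of genes that hold them. They are therefore not independent evidence. Of the tested genes, 20.3% of the lower, 3.19% of the higher and 4.54% of the genes not called held a word in the 3' UTR (GENCODE M21, longest coding transcript). None of the 9 SLRP genes held it there. The Aurkb coding sequence itself holds both words, overlapping. Lum held both in its 5' UTR and ACGTGTA in its coding sequence, Podn held AACGTGT and Ogn ACGTGTA in the coding sequence, and Dcn, Fmod, Aspn, Prelp, Bgn and Omd held none in any part of the mRNA. In the following stretches of 30 bases, 5′ to 3′ on the mRNA strand, capitals mark the words.
Aurkb coding sequence, chromosome 11: gcaaatttggaAACGTGTActtggctcggg
Lum 5' UTR, chromosome 10: tcagttgtctcAACGTGTAtatgaagcgct
Lum coding sequence, chromosome 10: tatgagtgtctACGTGTAgcaaatgaaatc
Podn coding sequence, chromosome 4: caacgcgctggAACGTGTgcccagcggcct
Ogn coding sequence, chromosome 13: ccagaaagtctACGTGTAattcaccttcag
Thus 2 of the 6 lower SLRP genes held a word in some part of the mRNA, Lum and Podn, where 33.1% of all lower genes and 13.2% of all tested genes did. Dcn and Fmod, which also fell more than 2-fold, held none. The part of these words in the change of the SLRP genes was not tested.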

How the data were processed

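RNA-seq of 6 libraries of cultured lung-resident fibroblasts was analysed, 3 with Aurkb siRNA and 3 with control siRNA, grouped by the sample labels. In the submitters' processing notes, TopHat, DESeq, CASAVA 1.8 and bcl2fastq are named as tools and mm10 as the build. The sources used here give no annotation, strand setting or counting tool. RPKM values for each library were deposited by the authors. They also deposited signal values, which are group and overall means of reads scaled by size factors. The fold, log2 and p-value columns of the authors' own comparison, and their table of significant genes, were not used.

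Since RPKM steps correspond to single reads, whole reads were recovered (100% whole, tolerance 0.001) and divided by size factors solved from the deposited group means (0.7608 to 1.1155). Genes that averaged 10 or more normalized counts with either siRNA were fitted as log2(normalized count + 1) in R 4.3.3 with limma 3.58.1 and its trend option, leaving 4 residual degrees of freedom, with Benjamini-Hochberg adjustment. The calling thresholds are those of the study. The script was tested on simulated data. Positions are from RefSeq on GRCm38.p6, and numpy 2.4.6, pandas 2.3.3, matplotlib 3.10.9 and scipy 1.17.1 were used in Python 3.11.15.

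The SLRP genes, the gene lists and the words searched were chosen with earlier results of these data known. Named genes were the 9 genes, Aurkb, the other SLRP genes in the table, up to 4 called genes of each list with the smallest p and any called gene against the majority of its list, and the 3 genes most alike each called SLRP gene. Outside this rule, further genes that were not called were named after their values were seen. Among them were Col1a1, Col3a1, Tlr4, the TGFβ genes, Scp2 and the uncalled markers of fibroblasts, adventitial fibroblasts and hematopoietic cells. Libraries of the same replicate number deviated together (correlation across genes 0.395, 0.173 and 0.214, against -0.243 to 0.049 for different numbers). A fit with the number as a block was therefore also made. Since the labels do not give such pairs, the block and the comparisons by replicate number rest on a pairing seen in these same data. The alternatives were other pseudocounts, filters and scalings, the deposited RPKM, voom, the block and leaving out each library.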

Additional observations from a re-analysis of the deposited data

How the results depend on the processing

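Over 16 alternatives the 9 SLRP genes kept direction and call in 135 of 142 values, 7 calls were lost to the 1.5-fold limit, and 0 were gained or reversed. Lost were Prelp under scaling by counted reads, RPKM and voom (each -0.58), without Aurkb siRNA replicate 2 (-0.47) and without control siRNA replicate 3 (-0.56), and Podn without Aurkb siRNA replicate 1 or control siRNA replicate 3 (each -0.58). Between 4 and 6 SLRP genes were lower when single libraries were left out, with 4 without control siRNA replicate 3. With the replicate number as a block, 6 were lower and 0 higher, among 1171 lower and 694 higher genes in all, and the adjusted p from limma was 3.48e-09 for Lum, 0.0014 for Ogn and 0.068 for Bgn; the block changed no call of the 9. On RPKM 531 genes were lower and 311 higher, against 1067 and 645 on normalized counts. Ecm2 (log2 fold change -0.38), Chst15, Chst1, B3gnt7 and Met were not called on RPKM. In all, the call was lost under 5 alternatives for Met, 3 for Ctsk and Epyc, 2 for Col6a2 and B3gnt7, and 1 for Ecm2, Chst15, Chst1 and Cd44. Calls were lost without Aurkb siRNA replicate 2 for Met (-0.48), Col6a2 (-0.57) and Cd44 (0.55), without Aurkb siRNA replicate 3 for Ctsk (-0.51), without control siRNA replicate 1 for Met (-0.52) and Ctsk (-0.50), and without control siRNA replicate 3 for Met (-0.56), Col6a2 (-0.58) and B3gnt7 (0.69). Podnl1, not called, changed sign without Aurkb siRNA replicate 2 (-0.19) and without control siRNA replicate 1 (-0.01), in a range up to 0.39 when single libraries were left out. The summed level was 83.0% of control siRNA without Dcn, 57.2% without Bgn, and 70.9% to 76.5% when single libraries were left out. Omd, Epyc, Optc and Podnl1 had under 60 normalized counts in each library.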
